A study of Mus musculus with 6 samples.

Results

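The complement genes of the irradiated mouse cortex were examined through 9 genes, *C1qa*, *C1qb*, *C1qc*, *C4b*, *C3*, *C3ar1*, *C5ar1*, *Serping1* and *Cd55*, taken by gene name from 51826 genes in the deposited tables. Each of these names matched 1 row. The samples were cortices of male BALB/c mice aged 6 to 8 weeks by the study's methods. Libraries were made from 3 wildtype mice (Lgmn+/+-IR) and from 3 mice labelled as knockouts of *Lgmn*, the gene for the lysosomal cysteine protease asparagine endopeptidase or AEP (Lgmn-/--IR). All 6 mice had received a single dose of 10 Gy of X-rays to the whole brain, and the cortex was taken on day 3. The series has no non-irradiated libraries, so every difference below is between genotypes after irradiation. The Lgmn-/- mice carried floxed *Lgmn* alleles and Cre and descended from a positive clone of embryonic stem cells, while the promoter that drove Cre is not given in the sources used here. The question was whether the expression of complement genes differed between the genotypes.

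Complement is a cascade of plasma and tissue proteins that tags targets for uptake and lysis. C1q, built of the chains encoded by *C1qa*, *C1qb* and *C1qc*, starts the classical pathway, in which C4 and then C3 are cleaved, and the small fragments released later in the cascade act on the receptors C3aR and C5aR1. In the brain C1q is known to come mostly from microglia, and complement is known for tagging synapses that microglia remove during development and in disease.

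None of the 9 genes passed the test between genotypes. With edgeR's quasi-likelihood test and Benjamini-Hochberg adjustment over 18345 tested genes, 0 of 9 had an adjusted p under 0.05, where 3.33% of all tested genes did. Likewise 0 of 9 were differentially expressed genes (DEGs, adjusted p under 0.05 and absolute log2 fold change over 1), against a background of 2.06%. DESeq2, limma-voom and limma on FPKM also called 0 of 9. At an unadjusted p under 0.05, 3 of 9 genes (*C1qc*, *C3ar1* and *C5ar1*) stood beside 18.6% of all tested genes. The libraries of the genotypes did not overlap for 4 genes. *C1qb*, *C1qc* and *C3ar1*, 3 of 9, were lower in every Lgmn-/--IR library than in any Lgmn+/+-IR library, a pattern that 13.3% of all tested genes showed. *C5ar1*, 1 of 9, was higher in every Lgmn-/--IR library, and 12.4% of all tested genes were. Log2 fold changes, Lgmn-/--IR over Lgmn+/+-IR, were below 0 for 6 of the 9 genes and above 0 for 3, with a median of -0.16, against -0.01 over all tested genes.

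The total counts of the libraries lay between 41874462 and 46829441. Values below are read counts as deposited, CPM (counts scaled to library size with edgeR's TMM factors, mean ± SD, n = 3 per genotype) and FPKM (the authors' values, which are scaled for transcript length and can be compared between genes). *Lgmn* itself had 5558, 5528 and 5775 counts in Lgmn+/+-IR replicates 1 to 3 and 3703, 3269 and 4109 counts in Lgmn-/--IR replicates 1 to 3. Its log2 fold change was -0.64 (standard error, SE, 0.12, adjusted p = 0.0315, edgeR), so reads of the gene were still counted in the libraries labelled Lgmn-/--IR. These are counts over the whole gene, with no value for the deleted part alone, and check the labels only in part. With Lgmn+/+-IR replicate 1, 2 or 3 or Lgmn-/--IR replicate 1 left out in turn, its adjusted p was 0.103, 0.131, 0.104 and 0.0949. The series' design gives 3 mice per genotype, so each library was taken as a replicate, and no pair of libraries within a genotype was alike within counting noise.

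By mean FPKM over the 6 libraries the 9 genes spanned from 32.5 for *C1qa* to 0.0638 for *C3*. The chains of C1q led, with *C1qb* at 23.3 and *C1qc* at 21.4. *C4b* followed at 5.31, *Serping1* at 3.85 and *Cd55* at 1.5. The receptors stood lower, *C3ar1* at 0.452 and *C5ar1* at 0.155 FPKM. Neighbours in this order mostly shared part of their range over the libraries. The lowest *C1qa* value, 25.7 in Lgmn-/--IR replicate 3, lay just under the highest *C1qb* value of 25.9, and *C4b*, from 2.63 to 7.96, enclosed the range of *Serping1*, from 2.95 to 4.54. *Cd55*, from 1.22 to 1.81 FPKM, overlapped neither *Serping1* above it nor *C3ar1* below it, and the drop from *C1qc*, at least 17.03, to *C4b*, at most 7.96, was also without overlap.

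**Figure D1:**
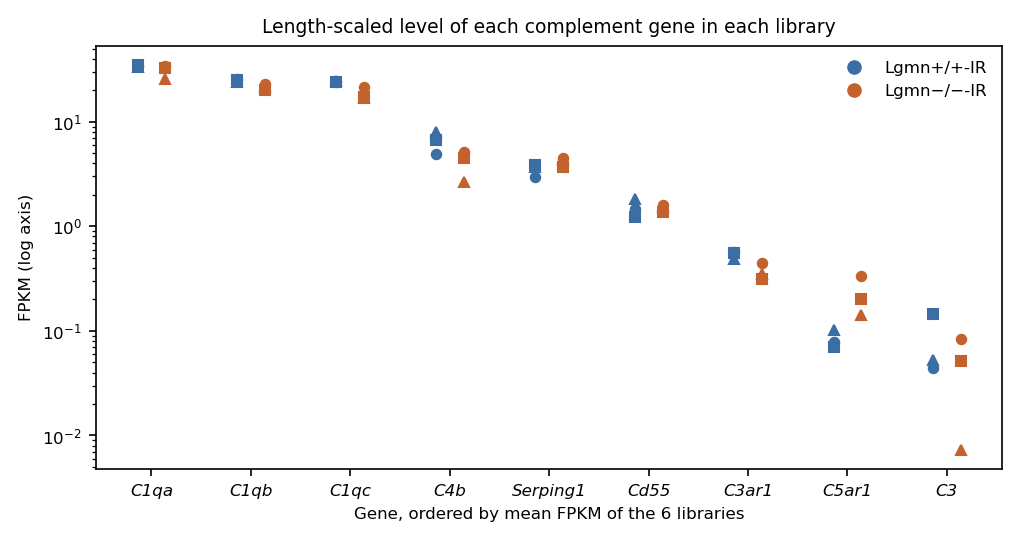
FPKM of the 9 complement genes on a log axis, with genes ordered by their mean over 6 libraries and 1 point per library (blue, Lgmn+/+-IR; orange, Lgmn-/--IR; circle, square and triangle for replicates 1, 2 and 3). The C1q chains lie between 17.03 and 35.1 FPKM in all libraries, while *C3* stays at or below 0.144.

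The C1q chains were close to equal or lower in Lgmn-/--IR, and none of them passed the test. Their genes lie side by side on the minus strand of chromosome 4 within 18.7 kb of GRCm38, from the start of *C1qb* at 136880129 to the end of *C1qa* at 136898803. *C1qa* (ENSMUSG00000036887, chr4:136895917-136898803) had 1707, 1727 and 1778 reads across Lgmn+/+-IR mice, against 1806, 1722 and 1427 for Lgmn-/--IR. The genotypes overlapped, since Lgmn-/--IR replicate 1 was the highest of all 6 after scaling and replicate 3 the lowest. The means were 39.8 ± 0.641 and 36.8 ± 4.08 CPM, and the log2 fold change was -0.12 (SE 0.11, 95% interval -0.37 to 0.13, adjusted p = 0.609).

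*C1qb* (ENSMUSG00000036905, chr4:136880129-136886187) had 1344, 1294 and 1340 reads across Lgmn+/+-IR mice, against 1278, 1110 and 1262 for Lgmn-/--IR. In CPM every Lgmn-/--IR library was below every Lgmn+/+-IR library, but narrowly, with 28.8 as the highest of the former and 29.5 as the lowest of the latter. The log2 fold change was -0.16 (SE 0.11, 95% interval -0.41 to 0.09, adjusted p = 0.465). *C1qc* (ENSMUSG00000036896, chr4:136889804-136893065) had 1379, 1361 and 1517 reads across Lgmn+/+-IR mice, against 1326, 1062 and 1092 for Lgmn-/--IR. It differed most among the 3 chains, with means of 32.5 ± 0.799 and 25.9 ± 3.59 CPM and no overlap. The log2 fold change was -0.33 (SE 0.12, 95% interval -0.61 to -0.05). The p of edgeR's quasi-likelihood test was 0.0270 unadjusted and 0.205 adjusted.

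Promoters from RefSeq (GRCm38.p6) were at hand for 6 of the 9 genes, but not for *C1qa*, *C4b* and *Serping1*. The sequences before *C1qb* and *C1qc* are shown because these neighbouring genes were both lower without overlap. No comparison with *C1qa* could be made. They read 5′ to 3′ on the minus strand, at chr4:136886201-136886450 and chr4:136893066-136893164. The 99 bases for *C1qc* leave out what GENCODE places inside the gene. Capitals mark GAGGAA or its reverse complement, a core to which PU.1, a transcription factor of microglia and macrophages, is known to bind.
C1qb: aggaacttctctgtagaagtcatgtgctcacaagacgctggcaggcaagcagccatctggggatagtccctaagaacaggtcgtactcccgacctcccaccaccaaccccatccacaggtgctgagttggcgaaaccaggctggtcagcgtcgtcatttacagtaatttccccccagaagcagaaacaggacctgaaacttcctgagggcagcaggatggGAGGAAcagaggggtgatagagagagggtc
C1qc: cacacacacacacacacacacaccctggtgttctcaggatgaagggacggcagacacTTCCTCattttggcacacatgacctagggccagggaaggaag
In the 250 bases before the RefSeq start this motif began 30 bases before it in *C1qb*, and in *C1qc* it lay on the other strand at 193 bases. On either strand it was found in 23.3% of 32851 promoters of the same length, so its presence is a description of these windows. *C3* and *Cd55* held none of the 4 motifs searched, which were GAGGAA, GAAANNGAA (7.1% of promoters), TTCNNNGAA (7.0%) and TATAAA (12.4%), each on both strands. No match overlapped another. *C5ar1* held GAAANNGAA on the other strand at 66 bases, within the stretch that GENCODE places inside the gene, so its sequence is not shown.

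Added up, the 3 chains came to 103.8, 102.3 and 101.9 CPM in the Lgmn+/+-IR libraries and 99.3, 83.9 and 86.2 CPM in the Lgmn-/--IR libraries. The Lgmn+/+-IR libraries lay close together, while the Lgmn-/--IR libraries were all lower and more widely spread. The ratio of the means, 89.8 ± 8.31 over 102.7 ± 1.01, was 0.874, and 0.852 in FPKM. Within the summed FPKM *C1qa* made up 41.1% ± 0.552 in Lgmn+/+-IR and 43.2% ± 3.31 in Lgmn-/--IR, and *C1qb* 30.0% ± 0.702 and 30.5% ± 2.76, with overlap in each case. The share of *C1qc* was 29.0% ± 0.887 and 26.2% ± 1.32, lower in all Lgmn-/--IR libraries.

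Microglial markers were set beside the C1q chains, since these cells are their main source. Of 13 microglial markers 0 had an adjusted p under 0.05. At an unadjusted p under 0.05 there were 3 (among them *Csf1r* and *Fcrls*, both lower in Lgmn-/--IR), beside 18.6% of all tested genes. A log2 fold change below 0 was found for 10 of the 13, and for 9482 of all 18345 tested genes. The other 3, *Aif1* (0.46), *Sall1* (0.35) and *Ctss* (0.01), were above 0 without passing. The summed level of the 13 markers ranged from 265 to 299 CPM in Lgmn+/+-IR and from 229 to 268 CPM in Lgmn-/--IR. The C1q sum divided by this microglial sum was 0.373 ± 0.0267 in Lgmn+/+-IR and 0.364 ± 0.0165 in Lgmn-/--IR, and the libraries overlapped. In bulk tissue fewer cells of a type and less RNA per cell cannot be told apart, and the part of microglial number in the C1q values was not tested.

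**Figure D2:**
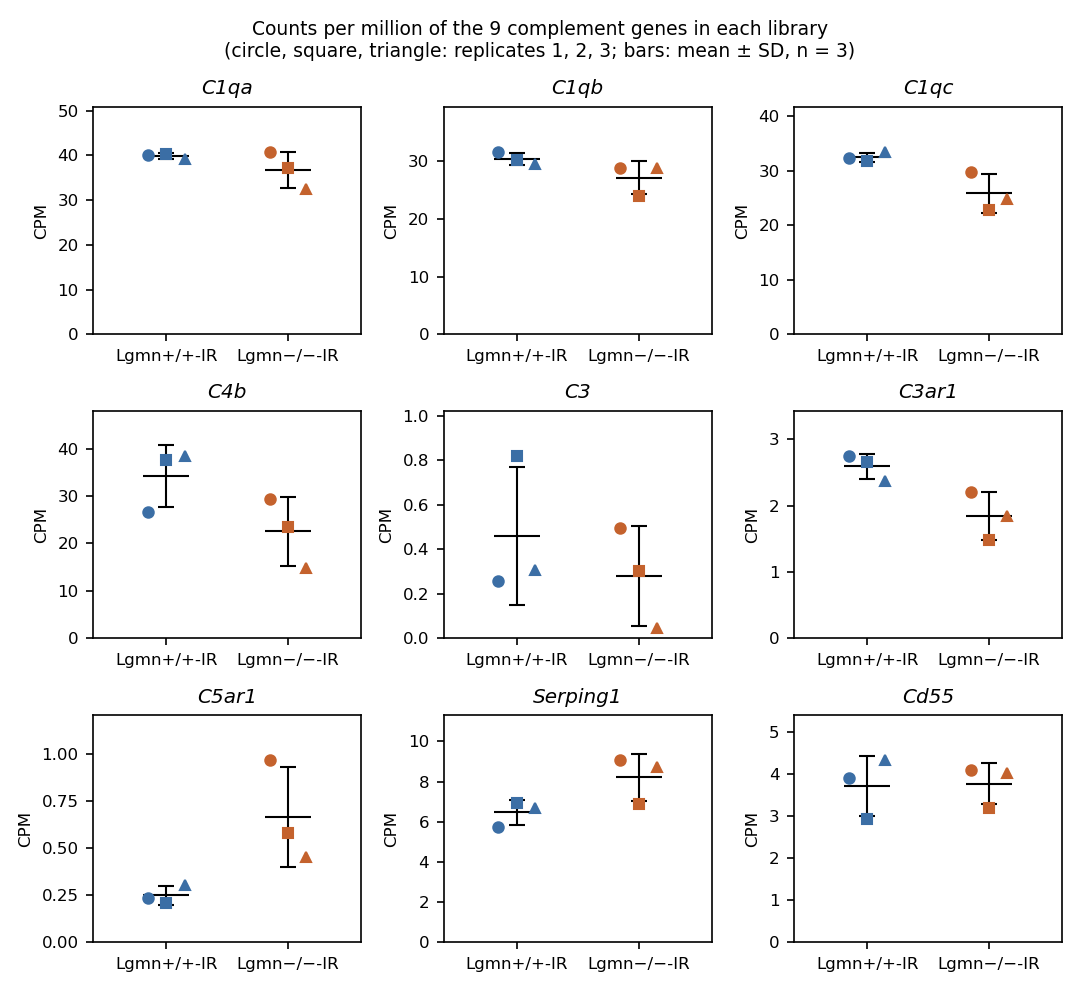
CPM of each complement gene in every library, on axes that start at 0 (blue, Lgmn+/+-IR; orange, Lgmn-/--IR; bars, mean ± SD of 3 libraries). *C5ar1* is higher in all Lgmn-/--IR libraries, *C1qb*, *C1qc* and *C3ar1* are lower in all of them, and the other genes overlap.

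The components that are cleaved, C4 and C3, had lower mean levels in Lgmn-/--IR, and their libraries overlapped. *C4b* (ENSMUSG00000073418, chr17:34728380-34743882, in the H2 region) encodes mouse C4, whose fragment C4b attaches to targets. Lgmn+/+-IR libraries held 1135, 1608 and 1743 of its reads, and Lgmn-/--IR libraries 1302, 1091 and 655. Lgmn-/--IR replicate 3 was far below all others, whereas Lgmn-/--IR replicate 1 exceeded Lgmn+/+-IR replicate 1. The means were 34.2 ± 6.56 and 22.6 ± 7.24 CPM, the log2 fold change was -0.60 (SE 0.26, 95% interval -1.20 to 0.01), and the adjusted p was 0.273. Without Lgmn-/--IR replicate 3 the log2 fold change was -0.37, and without Lgmn-/--IR replicate 1 it was -0.83.

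*C4b* has a near copy, *C4a*, 65.2 kb away, with 96.0% identity over 5378 of 5379 transcript bases, so that counting could have split reads between them. *C4a* had 109, 113 and 128 reads across Lgmn+/+-IR mice, against 72, 68 and 55 for Lgmn-/--IR. All Lgmn-/--IR libraries were lower in CPM, with a log2 fold change of -0.88 (SE 0.19, adjusted p = 0.0548 by edgeR and 0.00814 by DESeq2). Its FPKM did not share this direction, with means of 0.781 ± 0.369 for Lgmn+/+-IR against 0.943 ± 0.273 for Lgmn-/--IR, and there the genotypes overlapped. Of the counts on both genes *C4b* held 91.2% to 94.8% in each library. With the counts of both genes summed, an alternative chosen after seeing the data, the log2 fold change was -0.62 (adjusted p = 0.245).

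*C3* (ENSMUSG00000024164, chr17:57203970-57228136), the protein on which all pathways of complement meet, was barely detected, with 11, 35 and 14 reads across Lgmn+/+-IR mice, against 22, 14 and 2 for Lgmn-/--IR. Lgmn+/+-IR replicate 2 held the most reads, and Lgmn-/--IR replicate 3 was under 3 counts, the floor used here. The log2 fold change of -0.70 had an SE of 0.76 and a 95% interval from -2.49 to 1.08 (adjusted p = 0.667). Without Lgmn+/+-IR replicate 2 it was -0.01, and no difference in *C3* was detectable in these libraries.

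The receptors for the small fragments differed in the sign of their fold change, and neither passed the test. *C3ar1* (ENSMUSG00000040552, chr6:122847138-122856161), the receptor for C3a, had 117, 114 and 108 reads across Lgmn+/+-IR mice, against 98, 69 and 81 for Lgmn-/--IR. Every Lgmn-/--IR library was lower. The means were 2.59 ± 0.193 and 1.85 ± 0.36 CPM, with a log2 fold change of -0.49 (SE 0.21, 95% interval -0.98 to -0.00099). Before adjustment its p was 0.0496 and after it 0.268 in edgeR's quasi-likelihood test. Its promoter is shown for comparison with those of *C1qb* and *C1qc* (chr6:122856162-122856407, minus strand), with TATAAA in capitals. Bases that GENCODE places inside the gene are left out.
C3ar1: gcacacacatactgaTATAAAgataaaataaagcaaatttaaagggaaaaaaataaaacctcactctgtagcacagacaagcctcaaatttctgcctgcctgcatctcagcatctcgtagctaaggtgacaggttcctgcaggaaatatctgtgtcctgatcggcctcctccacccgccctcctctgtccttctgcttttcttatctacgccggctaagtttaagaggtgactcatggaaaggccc
No GAGGAA was in the 250 bases before its RefSeq start, and the TATAAA began 235 bases before it.

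*C5ar1* (ENSMUSG00000049130, chr7:16246743-16259540) encodes the receptor for C5a, a strong attractant of myeloid cells. It had 10, 9 and 14 reads across Lgmn+/+-IR mice, against 43, 27 and 20 for Lgmn-/--IR, without overlap, and the lowest knockout library held more than the highest wildtype one. The means were 0.251 ± 0.0509 and 0.668 ± 0.267 CPM, and the log2 fold change was 1.4 (SE 0.40, 95% interval 0.47 to 2.34). The p of edgeR's quasi-likelihood test was 0.00923 unadjusted and 0.121 adjusted, and with alternative settings that could test it the adjusted p lay between 0.0981 and 0.339. The filter on low counts asked for 3 libraries at or above 0.223 CPM. *C5ar1* reached this in all 3 Lgmn-/--IR but 2 of the 3 Lgmn+/+-IR libraries. Only the group in which it was higher met the filter by itself. *C3* reached this cutoff in all 3 Lgmn+/+-IR but 2 of the 3 Lgmn-/--IR libraries. For *C3*, too, only the group with the higher mean met the filter by itself. The remaining genes reached the cutoff in all 6 libraries, so all 9 were tested.

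Markers of cells that carry C5aR1 outside the microglia had fold changes of either sign. Of 9 markers of border macrophages, monocytes and neutrophils 3 (*Ccr2*, *S100a8* and *S100a9*) were below the filter, and *S100a8* and *S100a9* were at 0 in 3 libraries each. Of the 6 tested, *Ly6c2* fell in Lgmn-/--IR (log2 fold change -3.31, SE 0.28, adjusted p = 0.00152), and 4 had a log2 fold change above 0 without passing. The summed level of the list was 11.1 to 17.05 CPM in Lgmn+/+-IR and 4.27 to 8.82 CPM in Lgmn-/--IR. Without *Ly6c2*, a sum added after seeing the data, it was 4.41 to 5.32 and 3.51 to 7.86 CPM, and the genotypes overlapped. Neutrophil markers *S100a8* and *S100a9* had 23 and 32 counts in Lgmn-/--IR replicate 1, the library with the most *C5ar1* counts, and at most 7 in any other library. Their part in the *C5ar1* values was not tested.

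The regulators were level or a little higher in Lgmn-/--IR. *Serping1* (ENSMUSG00000023224, chr2:84765387-84775444) encodes the C1 inhibitor, which blocks the proteases bound to C1q. It had 246, 298 and 305 reads across Lgmn+/+-IR mice, against 402, 320 and 382 for Lgmn-/--IR. Lgmn-/--IR replicate 2, at 6.89 CPM, was slightly below Lgmn+/+-IR replicate 2, at 6.96 CPM, so the genotypes overlapped. The means were 6.48 ± 0.629 and 8.22 ± 1.16 CPM, with a log2 fold change of 0.34 (SE 0.16, 95% interval -0.03 to 0.71, adjusted p = 0.299).

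*Cd55* (ENSMUSG00000026399, chr1:130439027-130462744) encodes decay-accelerating factor, a membrane protein that takes apart the enzymes that cleave C3. Lgmn+/+-IR libraries held 167, 126 and 197 of its reads, and Lgmn-/--IR libraries 182, 149 and 177. The Lgmn-/--IR libraries lay within the range of the Lgmn+/+-IR libraries in CPM, and the log2 fold change was 0.02 (SE 0.20, 95% interval -0.45 to 0.49, adjusted p = 0.969), with a sign that changed under upper-quartile scaling (-0.0031). Its near copy *Cd55b* (91.9% identity over 1157 bases) had 0 counts in every library.

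Of 48 further complement genes, listed by pathway and counted apart from the 9, 17 were below the filter and 31 were tested. A single gene, *Masp2*, was a DEG in edgeR's quasi-likelihood test, and it was also the 1 gene with an adjusted p under 0.05, beside the 2.06% and 3.33% of all tested genes given above. Log2 fold changes were above 0 for 15 genes and below 0 for 16, with a median of -0.05, close to the -0.01 of all tested genes. By role 1 of 9 tested genes of the classical and lectin pathways passed, and 0 of 2 of the alternative pathway, 0 of 2 of the terminal pathway, 0 of 4 receptors and 0 of 14 regulators did. At an unadjusted p under 0.05 there were 3 of the 31 (*Masp2*, *C4a* and *C8g*), beside 18.6% of all tested genes. All 3 were lower in Lgmn-/--IR.

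*Masp2* (ENSMUSG00000028979, chr4:148602554-148615499) encodes the protease of the lectin pathway that cleaves C4 and C2. It had 114, 58 and 53 reads across Lgmn+/+-IR mice, against 19, 15 and 14 for Lgmn-/--IR. No library overlapped, and Lgmn+/+-IR replicate 1 was the highest by far. The log2 fold change was -2.27 (SE 0.40, adjusted p = 0.0283, edgeR), and without Lgmn+/+-IR replicate 1 it was -1.81 (adjusted p = 0.0510). Leaving out Lgmn+/+-IR replicate 2 or any of the Lgmn-/--IR libraries also ended the call, with adjusted p between 0.0722 and 0.120. Its exons overlap those of *Tardbp* on the other strand, which had 2790, 1007 and 2106 reads across Lgmn+/+-IR mice, against 1064, 1152 and 892 for Lgmn-/--IR. Since use of strand in counting is not given in the sources used here, reads of these 2 genes may not have been told apart.

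Among the other genes of the classical and lectin pathways, *Masp1*, a related protease, had a log2 fold change of 0.31 (SE 0.18) and *C2*, which joins C4b in the enzyme that cleaves C3, one of 0.15 (SE 0.24). In the alternative pathway *Cfp*, or properdin, which stabilises that pathway's enzyme, stood at 0.42 (SE 0.34; 0.89 without Lgmn+/+-IR replicate 1 and 0.18 without Lgmn+/+-IR replicate 3) and *Cfb*, or factor B, at -0.12 (SE 0.29), while *Cfd* was below the filter with at most 2 counts. Exons of *C2* and *Cfb* overlap those of *Gm20547* on the same strand. *Gm20547* had 144 counts in Lgmn-/--IR replicate 2 and 0 in every other library, so counting could have split reads there. The terminal pathway, which forms the lytic pore, held few reads. *C8g* had 85, 57 and 75 reads across Lgmn+/+-IR mice, against 42, 51 and 23 for Lgmn-/--IR, without overlap in CPM (log2 fold change -0.95, SE 0.33, adjusted p = 0.186). *C7* was at -0.62 (SE 0.33), *Hc*, the gene of C5, was below the filter with at most 16 counts, and *C6* and *C9* had 0 counts in all libraries. A count of 0 allows up to 3 counts in a library, so neither can be called absent.

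*Itgam* and *Itgb2*, which form the complement receptor CR3 of microglia and other myeloid cells, had log2 fold changes of -0.08 (SE 0.25) and 0.09 (SE 0.28), and *Cd93*, a lectin-like receptor of endothelium and myeloid cells, had one of 0.56 (SE 0.32). The name *Itgam* matched 2 rows, and the values are of 1 of them. Its exons overlap those of *Gm49368* on the same strand, so counting could have split reads. *Gm49368* had 32 counts in Lgmn+/+-IR replicate 1, 53 in Lgmn-/--IR replicate 2 and at most 1 elsewhere. The regulators with the highest FPKM were *Clu*, or clusterin, at 411, *Susd4* at 48.4 and *C1qbp* at 45.0, all above *C1qa*. *Clu*, which binds the forming pore, had a log2 fold change of 0.17 (SE 0.10), *Susd4*, a membrane inhibitor, one of 0.00013 (SE 0.11) and *C1qbp*, which binds C1q, one of -0.05 (SE 0.08). None of the tested complement genes given after *Masp2* passed, with adjusted p between 0.186 for *C8g* and 0.9997 for *Susd4* in edgeR's quasi-likelihood test. In the same test the adjusted p of *C4a*, described above, was 0.0548.

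**Figure D3:**
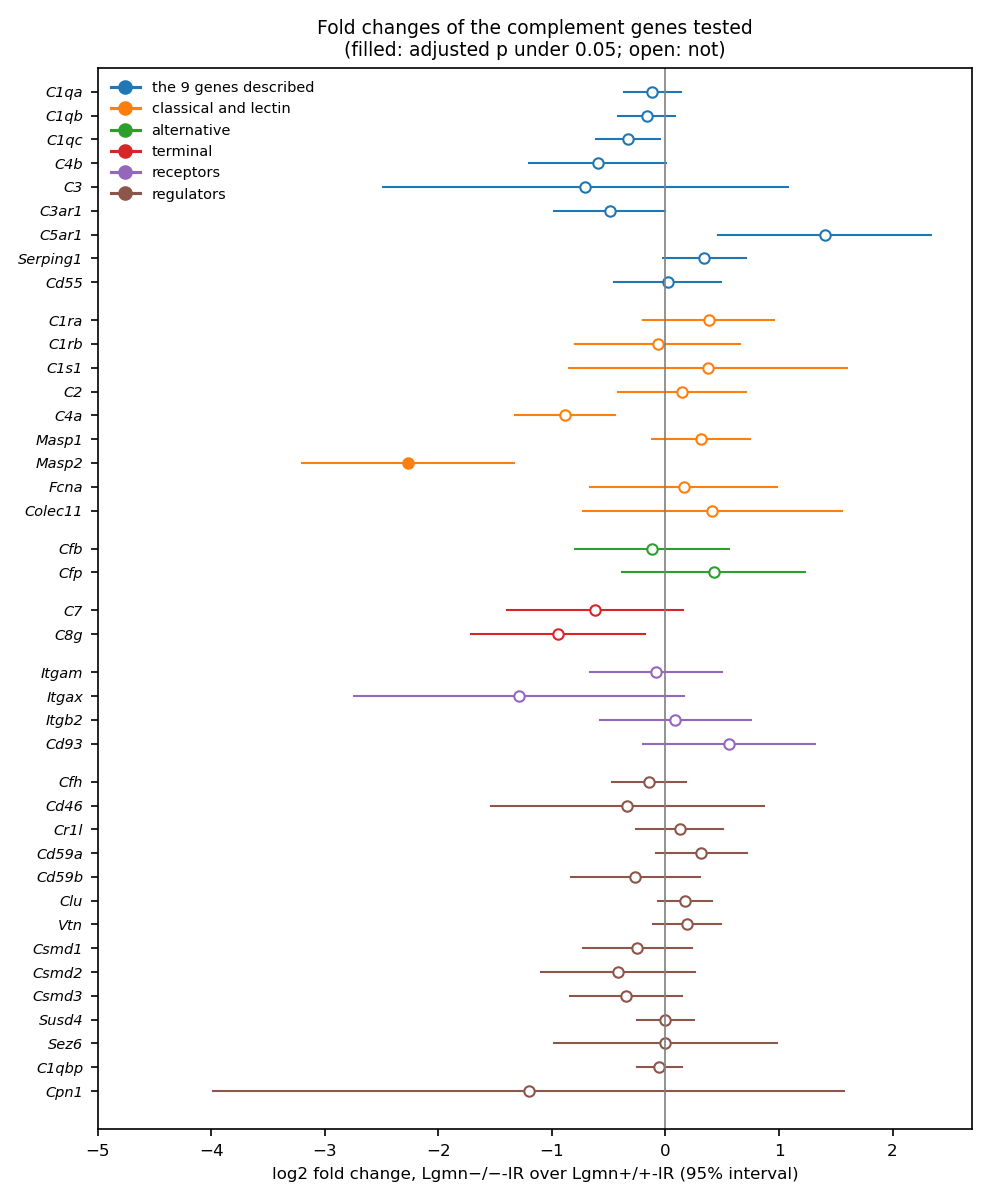
Log2 fold change (Lgmn-/--IR over Lgmn+/+-IR) with its 95% interval for the 9 complement genes and the 31 further complement genes tested, colored by role, where filled points have an adjusted p under 0.05. Only *Masp2* at -2.27 is filled, and among the 9 genes the intervals of *C1qc*, *C3ar1* and *C5ar1* leave out 0.

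Over the 6 libraries the levels of the 9 genes followed each other unevenly. As a description across libraries that share the genotype contrast, the Pearson correlation of log2 CPM was 0.83 between *C1qb* and *C1qc*, 0.71 between *C1qa* and *C1qc*, and 0.32 between *C1qa* and *C1qb*. *C3ar1* correlated at 0.95 with *C1qc* and 0.93 with *C1qb*, and *C4b* at 0.87 with *C1qa*. By correlation *C3ar1* ranked 117 for *C1qc* and 89 for *C1qb*, and *C4b* ranked 353 for *C1qa*, among 18344 genes. *Serping1* was at 0.74 with *C5ar1* and below 0 with the C1q chains, from -0.40 to -0.19. Among 18344 genes compared, those most like *C1qa* were *Dnmt3b*, *Nhp2* and *Hist1h1c* (0.98 each), and those most like *C1qb* were *Tapbpl*, *Ap5b1* and *Gprc5c* (0.98 to 0.99). Those most like *C1qc* included *Gm44210* and *Asb2* (0.99 to 1.00), while *C4b* was most like *Gm3724*, *Fbxl4* and *Oip5* (0.99 to 1.00) and *Serping1* like *Parvb*, *Lsr* and *Fam163a* (0.99 to 1.00). None of these most correlated genes was on the complement lists.

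Markers of other cell types also differed between the libraries. They stand beside 3.33% of all tested genes with an adjusted p under 0.05. Of 5 oligodendrocyte markers 4, *Mog*, *Mag* and *Mobp* among them, were lower in Lgmn-/--IR (adjusted p from 0.00330 to 0.0364, edgeR), and their list summed to 3076 to 3737 CPM in Lgmn+/+-IR and 2023 to 2146 CPM in Lgmn-/--IR. All 5 red blood cell markers were higher, with sums of 7.59 to 15.8 CPM in Lgmn+/+-IR and of 2273, 1728 and 234 CPM in Lgmn-/--IR replicates 1, 2 and 3. Among the Lgmn-/--IR libraries the one with the highest red blood cell sum also held the most *C5ar1* reads, 43, and the one with the lowest sum the fewest, 20, and the part of blood in the *C5ar1* values was not tested. *Aqp4*, 1 of 8 astrocyte markers, was higher (log2 fold change 0.55, adjusted p = 0.0374), with summed levels of 4033 to 4372 and 4190 to 4666 CPM. *Slc6a13*, 1 of 6 markers of meningeal fibroblasts, was higher too (0.68, adjusted p = 0.0275), and that list summed to 79.5 to 91.7 CPM in Lgmn+/+-IR and 106 to 129 CPM in Lgmn-/--IR. None of 5 markers of endothelium (133 to 191 and 142 to 210 CPM) passed in edgeR. Nor did any of 5 of choroid plexus (28.7 to 49.4 and 28.2 to 44.7 CPM). The same held for 8 of cortical neurons (6210 to 7413 and 7003 to 8707 CPM, all 8 above the filter). At an unadjusted p under 0.05 there were 1, 0 and 0 in these lists, beside 18.6% of all tested genes. The part of these cell types in the values of *Serping1* and *C4b*, which cells other than microglia also express, was not tested.

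**Figure D4:**
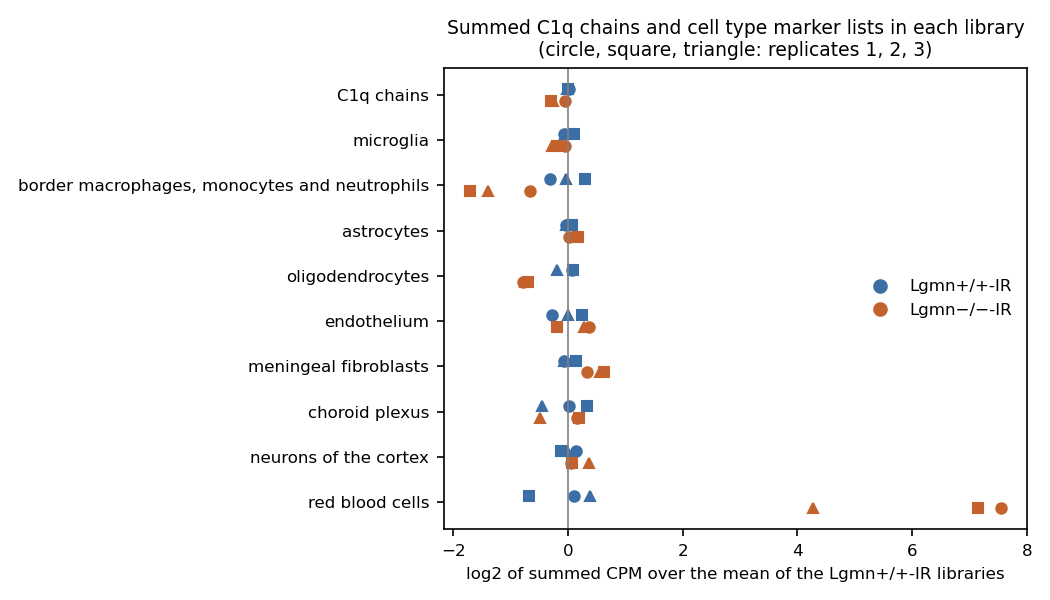
Log2 of the summed CPM of the C1q chains and of each cell type marker list in every library, relative to the mean of the Lgmn+/+-IR libraries (blue, Lgmn+/+-IR; orange, Lgmn-/--IR). The C1q chains (ratio of means 0.874), the oligodendrocyte list (0.597) and the list of border macrophages, monocytes and neutrophils (0.441) are lower in all Lgmn-/--IR libraries. The red blood cell and meningeal fibroblast lists (116 and 1.43) are higher in all of them, and the other lists overlap. Without *Ly6c2* (not drawn) the list of border macrophages, monocytes and neutrophils also overlaps, with a ratio of 1.08.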

How the data were processed

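Bulk RNA sequencing of cortex from 3 Lgmn+/+-IR and 3 Lgmn-/--IR mice was analysed, grouped by the sample labels. Read filtering by the authors used Trimmomatic 0.36, mapping used HISAT2 and expression values came from StringTie. Per the labels the genome build was GRCm38. The authors deposited read counts per gene, not normalized, and FPKM (scaled for length and library size). The read counter, annotation and use of strand are not given in the sources used here.

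Counts were fitted with edgeR 4.0.16 in R 4.3.3 (TMM factors, filterByExpr with a minimum count of 10, quasi-likelihood F-test, genotype as the only factor), with Benjamini-Hochberg adjustment over 18345 genes. Standard errors come from the F statistic. Libraries held 41874462 to 46829441 counts, and a count of 3 was taken as the floor. Since the reads carry no molecular identifiers, depth speaks only for counting error. Positions come from GENCODE M21, in which 51633 of 51826 gene IDs were found, and near copies from BLAST 2.17.0+. Alternatives were DESeq2 1.42.0, limma-voom and limma 3.58.1 on log2(FPKM + pseudocount, 1, 0.1 or 0.01), other scalings and filters, hemoglobin genes left out, a replicate block and each library left out. The fit was tested on simulated data, where a call was an adjusted p under 0.05. It called 1 of 50 genes changed 1.5-fold and 27 of 50 changed 2-fold. At 4-fold and 8-fold it called 44 and 47 of 50, and 7.75% of its calls were unchanged genes.

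The genes and lists were chosen with earlier results of these data known. Named were *Lgmn*, the 9 genes, further complement genes that passed or were among the 3 highest in FPKM of their role, markers that passed, and the 3 genes most correlated with *C1qa*, *C1qb*, *C1qc*, *C4b* and *Serping1*. *C4a*, *C6*, *C9*, *Tardbp*, *Cd55b*, *S100a8*, *S100a9*, *Ccr2*, *Csf1r*, *Fcrls*, *Aif1*, *Sall1*, *Ctss*, *Gm20547* and *Gm49368* were named after their values were seen. Some genes that this rule takes are not reported here. Same-numbered libraries are different animals and were not paired.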

Additional observations from a re-analysis of the deposited data

How the results depend on the processing

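The count of 0 of the 9 complement genes, as DEGs or with an adjusted p under 0.05, was the same under all 18 alternatives. The C1q sum in Lgmn-/--IR over Lgmn+/+-IR lay between 0.829 and 0.905 when each library was left out. The count of DEGs among all genes, 377 by edgeR's quasi-likelihood test, was 593 with DESeq2, 228 with at least 10 counts in every library, 175 with limma on log2(FPKM + 1), 144 with the same and no filter, and 200 to 326 when each library was left out. The cause was not tested. The further complement genes had 2 with an adjusted p under 0.05 in DESeq2 (*Masp2* and *C4a*), and 0 DEGs and 0 with an adjusted p under 0.05 in limma-voom, with no filter on low counts and with limma on log2(FPKM + 1) without a filter, and 0 to 1 when each library was left out. With the replicate block the DEGs numbered 139, and 0 further complement genes were DEGs or had an adjusted p under 0.05. Deviations of same-numbered libraries correlated at -0.25, -0.05 and -0.03. With 3 libraries per genotype these values showed no shared deviation by number, but could not exclude a pairing. *Masp2* lost its call in 9 of 18 alternatives and *Lgmn* in 7, the replicate block among both. Small fold changes changed sign. When each library was left out the log2 fold change of *Cd55* ranged from -0.13 to 0.14, *C2* from -0.054 to 0.30, *Cfb* from -0.44 to 0.070, *Itgam* from -0.22 to 0.14, *Itgb2* from -0.12 to 0.39 and *Susd4* from -0.057 to 0.098. *Cd55* was -0.0031 and *Susd4* -0.024 with upper-quartile factors, and with pseudocounts of 1, 0.1 and 0.01 on FPKM *Cfb* was 0.034, 0.021 and 0.011 and *Susd4* -0.043, -0.044 and -0.044. *C3* and *C5ar1* could not be tested with at least 10 counts in every library. *C5ar1* rests on 9 to 43 counts in a library.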
